A study of Mus musculus with 107 samples.

Results

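The genes described here encode 8 enzymes of cholesterol synthesis: Hmgcs1, Idi1, Fdft1, Sqle, Lss, Cyp51, Msmo1 and Dhcr7. They were followed across neurons, astrocytes and oligodendroglia of the mouse central nervous system. They are 8 of the 18193 genes that a probe set with a single gene symbol could name on these arrays. They were chosen by name. Where several probe sets named an enzyme, the one with the highest mean log2 intensity over all arrays was taken. All 8 reached the expression minimum used below in at least 1 cell population.

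Cholesterol is built from acetyl-CoA. The early enzymes make mevalonate and isoprene units, the middle enzymes join these into squalene and oxidise it, and the late enzymes close the rings and trim lanosterol down to cholesterol. Lipoprotein cholesterol from the blood scarcely enters the brain, so neural cells make their own or receive it from neighbouring cells. Oligodendrocytes use large amounts for myelin and astrocytes release it on lipoproteins. The sterol-sensing transcription factors Srebf1 and Srebf2 control most genes of the pathway.

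The RNA came from translating ribosome affinity purification (TRAP). Mice carried a transgene on a bacterial artificial chromosome (BAC) that tags ribosomes in the cells where a driver gene is active. RNA on the tagged ribosomes was pulled down from a dissected tissue, amplified in a pair of cycles and hybridised to Affymetrix arrays. The 76 TRAP arrays covered 24 cell populations, with 3 independent replicates each except 4 for cortical astrocytes and 6 for Purkinje neurons, and 31 arrays held unbound RNA, which the purification left behind, from 6 tissues. The labels give no age, strain, sex or treatment of the mice, and all groups came from BAC transgenic animals.

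The 3 astrocyte populations were cortical astrocytes (aldh1l1 driver, lines JD130 and JD133 with 2 arrays each), cerebellar astrocytes (aldh1l1, JD130) and Bergmann glia of the cerebellum (septin4, DS152). The 4 oligodendroglial populations were mature oligodendrocytes (cmtm5, JD307) and mixed oligodendroglia (olig2, JD97), each from cortex and from cerebellum. The 17 neuron populations included 6 from cortex: Cck+ (GM391), Pnoc+ (GM64), Cort+ (GM130), layer 5a (etv1, TS88), layer 5b (glt25d2, DU9) and layer 6 (ntsr1, TS16). Another 5 came from cerebellum: Purkinje (pcp2, DR166 and DR168), Golgi (grm2, JP77), granule (neurod1, JP241), stellate and basket (lypd6, JP48) and unipolar brush (grp, JP25). The rest were Drd1+ (CP73) and Drd2+ (CP101) medium spiny neurons of the striatum, and 4 populations of the chat line DW167: cholinergic neurons of basal forebrain, corpus striatum and spinal cord, and motor neurons of the brainstem. Unbound RNA came from cortex (9 arrays), cerebellum (7), striatum (6), basal forebrain, brainstem and spinal cord (3 each). A population is therefore defined by what its driver expresses, and most populations rest on a single BAC line.

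Values below are levels on the log2 scale of deposited linear intensities, after each group was shifted so that 18 spiked control probe sets had the same mean. Each of the 30 groups was its own normalization set, so group and normalization cannot be told apart. A gene was called at a limma Benjamini-Hochberg adjusted p under 0.05 over all genes tested and a change of at least 2-fold. A gene was tested where a compared group reached a log2 level of 6, an intensity of 64. Comparisons between populations also required a TRAP level above unbound RNA, except where glia minus neuron differences were compared between tissues. A fold written as "at least" counts a population mean under 6 as 6. Replicate arrays of a group correlated at 0.948 or above. The normalization gave identical values in every array of a group for 13 of the 240 combinations of enzyme and group, which narrows the spread of those values. P-values describe the spread between arrays of a group, TRAP or unbound, and for cell classes the spread between population means. Unbound arrays of cortex, cerebellum and striatum came from several BAC lines. Levels of different enzymes come from different probe sets and are not compared. Percentages of genes called belong to this scaling. Counts of enzymes called after quantile normalization of all arrays are given beside them. The share of all genes called after quantile normalization was not counted, so those counts have no background to be read against.

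The labelled cell types were checked against marker lists. Each of the 3 astrocyte populations had a mean level of 12.82 to 13.31 over 9 astrocyte markers, and the 4 oligodendroglial populations had 13.42 to 14.24 over 8 oligodendrocyte markers. All 7 neuron markers on the array reached 6 in every neuron population. Other cells' markers were also present in several populations. Layer 5a neurons held astrocyte markers at 12.01, oligodendrocyte markers at 12.51 and all 7 microglia and macrophage markers at 6 or above. Unipolar brush neurons held astrocyte markers at 11.23, and Bergmann glia and Cort+ neurons held oligodendrocyte markers at 11.89 and 11.21. Mature oligodendrocytes held all 7 neuron markers at 6 or above, with means of 11.02 in cerebellum and 11.07 in cortex, against 10.69 in Golgi and 10.58 in Pnoc+ neurons. The part of these markers in the results was not tested.

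The RefSeq promoter table (GRCm38.p6) held 6 of the 8 enzymes. The 250 bases before the annotated start are shown for the gene with a match to the sterol regulatory element, for Idi1, which was the enzyme called between astrocytes and neurons as classes, and for the 3 enzymes whose levels varied most alike (Cyp51, Msmo1 and Dhcr7). They run 5′ to 3′ on the gene's own strand. Capitals mark a match to the sterol regulatory element TCACNCCAC or the CCAAT box, which reads ATTGG where it lies on the other strand. The regions are chr13:119690101-119690350 (plus strand) for Hmgcs1, chr13:8885356-8885605 (plus) for Idi1, chr5:4104698-4104947 (minus) for Cyp51, chr8:64733579-64733828 (minus) for Msmo1 and chr7:143829964-143830213 (plus) for Dhcr7, the last of 3 starts listed.
Hmgcs1: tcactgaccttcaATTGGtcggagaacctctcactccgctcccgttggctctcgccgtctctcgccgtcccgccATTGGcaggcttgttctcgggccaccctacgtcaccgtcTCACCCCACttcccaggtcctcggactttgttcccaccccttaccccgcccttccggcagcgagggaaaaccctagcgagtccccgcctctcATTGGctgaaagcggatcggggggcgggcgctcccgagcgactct
Idi1: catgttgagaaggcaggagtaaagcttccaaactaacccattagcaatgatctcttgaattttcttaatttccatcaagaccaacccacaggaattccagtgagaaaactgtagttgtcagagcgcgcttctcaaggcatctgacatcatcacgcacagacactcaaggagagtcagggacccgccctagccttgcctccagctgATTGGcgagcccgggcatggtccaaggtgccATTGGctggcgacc
Cyp51: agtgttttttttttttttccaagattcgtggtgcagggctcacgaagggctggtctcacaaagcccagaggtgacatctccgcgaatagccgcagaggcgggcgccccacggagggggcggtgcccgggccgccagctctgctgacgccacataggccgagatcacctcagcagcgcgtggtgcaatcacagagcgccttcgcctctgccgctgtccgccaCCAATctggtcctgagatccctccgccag
Msmo1: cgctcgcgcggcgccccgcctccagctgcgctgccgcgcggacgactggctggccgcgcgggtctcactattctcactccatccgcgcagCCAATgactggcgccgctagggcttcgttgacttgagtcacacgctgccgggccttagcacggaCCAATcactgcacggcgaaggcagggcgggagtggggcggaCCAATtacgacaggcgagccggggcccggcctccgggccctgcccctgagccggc
Dhcr7: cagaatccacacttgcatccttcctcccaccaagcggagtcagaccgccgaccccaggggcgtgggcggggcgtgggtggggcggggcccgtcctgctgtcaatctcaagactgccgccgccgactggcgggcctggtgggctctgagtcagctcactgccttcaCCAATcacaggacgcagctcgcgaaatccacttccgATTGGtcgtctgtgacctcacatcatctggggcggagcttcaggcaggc

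In windows of 300 bases, 250 before and 50 after the start, the sterol regulatory element was found on either strand in 1.24% of the 32851 promoters of the table and in 1 of the 6 enzymes, Hmgcs1, where its first base lies at -137. The CCAAT box was found in 37.4% of all promoters and in all 6 enzymes, and the GC box GGGCGG in 35.7% of all promoters and in all 6 enzymes. Dhcr7 has 3 listed promoters, so the 6 enzymes have 8 promoters, of which 6 held the CCAAT box and 7 the GC box. These are matches of letters, not measured binding sites.

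Across all populations the glia had higher class means than neurons for all 8 enzymes. A single enzyme was called, Idi1 in astrocytes against neurons, and the neuron populations spread widely. Idi1, which interconverts the isoprene building blocks, had a level of 12.95 ± 0.63 (SD over 3 populations) in astrocytes, 12.05 ± 0.60 in the 4 oligodendroglial populations and 10.48 ± 1.24 in the 17 neuron populations. No neuron population reached the lowest astrocyte population. The difference of 2.48 (SE 0.66), or 5.56-fold, was called in the limma fit over the 24 population means (adjusted p = 0.007), where 12% of genes were called higher in astrocytes and 11.1% lower. The median difference of all genes tested was -0.11.

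The other 7 enzymes were not called between astrocytes and neurons. Msmo1, the methylsterol monooxygenase that takes part in removing methyl groups from the ring, had 11.32 ± 1.41 in astrocytes against 9.30 ± 2.11 in neurons, a difference of 2.02 (adjusted p = 0.18, limma). Dhcr7, the dehydrocholesterol reductase of the final step, differed by 1.51, and Cyp51, the lanosterol demethylase, by 1.19. The smallest difference was 0.51 for Hmgcs1, which makes HMG-CoA at the entry of the mevalonate pathway. For Hmgcs1, 10 of the 17 neuron populations exceeded the lowest astrocyte population. For Sqle, the squalene epoxidase, 8 did so and 5 exceeded even the highest.

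Oligodendroglia minus neurons gave no call among the 8 enzymes in the limma fit, with 6.88% of all genes called higher and 4.62% lower, and 2 enzymes were higher at an unadjusted p under 0.05. The largest differences were 1.65 for Dhcr7 and 1.57 for Idi1 (adjusted p = 0.08, limma), beside a median of -0.15 for all genes. Idi1 was called there after quantile normalization of all arrays. Between astrocytes and oligodendroglia no enzyme was called and none had an unadjusted p under 0.05 in limma, where 3.7% of genes were called higher and 3.69% lower, and the largest difference was 0.90 for Idi1.

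**Figure D1:**
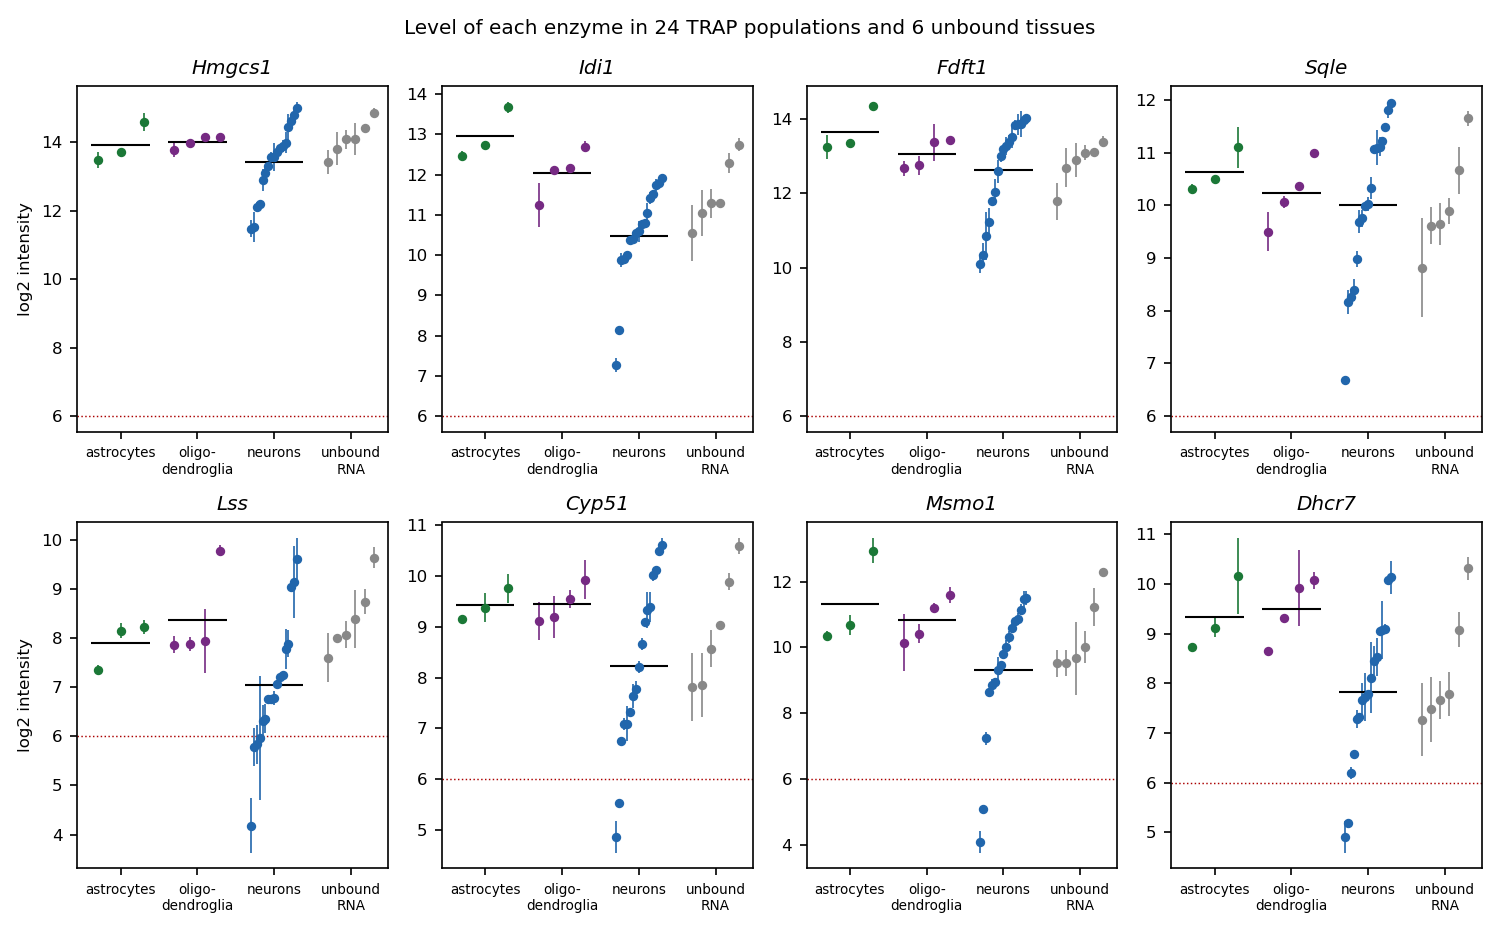
Log2 level of each enzyme in the 24 TRAP populations, grouped as astrocytes, oligodendroglia and neurons. Points are population means with their SD over arrays, black lines are class means and the red dotted line is the expression minimum of 6; some neuron points lie below the minimum for Lss, Cyp51, Msmo1 and Dhcr7.

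Within the cerebellum the glia stood above the mean of the 5 neuron populations for every enzyme that could be tested. In cerebellar astrocytes 7 of 7 enzymes tested were called higher (28.9% of all genes were), in Bergmann glia 7 of 7 (34.8%), in mature oligodendrocytes 7 of 7 (17.6%) and in mixed oligodendroglia 8 of 8 (32.2%). None was called lower, against 25.7%, 19.8%, 22.3% and 18.5% of all genes, also at an unadjusted p under 0.05 in limma. Lss, the lanosterol synthase that closes the rings, was tested in mixed oligodendroglia alone, because in the other comparisons none of the compared populations exceeded unbound RNA. It passed that filter through mixed oligodendroglia themselves, so it could be called higher there but not lower. Hmgcs1 and Dhcr7 exceeded unbound RNA in no cerebellar neuron population. In all 4 comparisons they too could be called higher but not lower. The 4 comparisons share the 5 neuron populations.

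Msmo1 gave the widest gap. Its levels were 10.32, 10.79 and 10.91 in cerebellar astrocytes, 10.49, 10.22 and 10.35 in Bergmann glia, 11.54, 11.36 and 11.85 in mature oligodendrocytes and 11.26, 11.32 and 11.05 in mixed oligodendroglia. In neurons they were 9.90, 9.93 and 10.24 in unipolar brush neurons, 8.64, 8.58 and 8.66 in stellate and basket neurons, 7.05, 7.44 and 7.22 in granule neurons, 5.10 in each of the 3 Golgi arrays and 3.55 to 4.51, with a median of 4.01, in the 6 Purkinje arrays. Every glial population was above the other 4 neuron populations on every array, and 1 unipolar brush array lay just above the lowest Bergmann array.

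The Msmo1 difference from the neuron mean was 4.57 in mature oligodendrocytes (at least 16.1-fold, adjusted p = 1.9e-27, limma) and 3.66 (SE 0.26) in cerebellar astrocytes (at least 8.56-fold, adjusted p = 3.1e-22). Idi1 had 12.49, 12.31 and 12.57 in cerebellar astrocytes, 12.73 in all 3 Bergmann arrays and 12.12, 12.09 and 12.12 in mature oligodendrocytes. Unipolar brush neurons, the highest of the neurons, had 11.53 in each array and Golgi neurons 7.16, 7.47 and 7.16, so glial and neuronal arrays did not overlap.

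The Idi1 difference was 2.48 (SE 0.19, 5.59-fold, adjusted p = 1.4e-20) in cerebellar astrocytes and 2.76 (6.76-fold) in Bergmann glia in the limma fit. Hmgcs1 had the smallest called difference of the cerebellar astrocytes, 1.35 (SE 0.18, adjusted p = 2.7e-10). Fdft1, the squalene synthase at the branch into sterols, differed by 2.34 there, Sqle by 1.82, Cyp51 by 2.53 and Dhcr7 by 2.46. In mixed oligodendroglia Lss had 9.66, 9.88 and 9.80 against a neuron mean of 6.69, a difference of 3.08 (at least 8.29-fold, adjusted p = 8.9e-19, limma).

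The median over the enzymes was 2.46, 2.76, 2.14 and 2.82 in the order above, beside medians of 0.02, 0.38, -0.19 and 0.34 for all genes tested. All 29 calls were also made after quantile normalization. With each neuron population left out in turn, 29 of 29 pairs of enzyme and glial population were called. Against Golgi, granule, Purkinje or stellate and basket neurons alone, 29 of 29 were called too. Against unipolar brush neurons alone 10 of 29 were called, where 28.3% of all genes were, and the lowest difference was -0.27. Unipolar brush neurons had the highest neuronal level of every enzyme in this tissue, for example 8.65 for Cyp51 beside a mean of 6.62 over the 5 populations.

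Cortical glia differed from the 6 cortical neuron populations in fewer enzymes. In cortical astrocytes 3 of 8 enzymes were called higher, where 26.4% of all genes were. Mature oligodendrocytes had 1 of 8 called (11.8% of all genes) and mixed oligodendroglia 1 of 8 (27.1%). No enzyme was called lower, against 36.3%, 38.8% and 27.8% of genes, and at an unadjusted p under 0.05 limma gave 0, 1 and 1 lower. The enzyme medians of 0.77, 0.15 and 0.08 compare with -0.26, -0.67 and -0.01 for all genes.

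The cortical astrocyte calls were Idi1, Msmo1 and Dhcr7. Idi1 had 13.51, 13.66, 13.66 and 13.85 in astrocytes. The highest neuronal arrays were those of layer 5a at 11.80, 11.98 and 11.96, followed by layer 5b at 11.26, 11.09 and 10.78, and the lowest were those of Pnoc+ neurons at 8.18, 8.02 and 8.18. Astrocytes were above every cortical neuron array, and the difference from the neuron mean was 3.27 (SE 0.17, 9.61-fold, adjusted p = 8.2e-31, limma).

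Msmo1 had 12.92, 12.41, 13.30 and 13.12 in cortical astrocytes and reached 11.30, 11.72 and 11.51 in layer 5a neurons, again without overlap. It differed by 2.94 (SE 0.23, 7.65-fold, adjusted p = 3.8e-20, limma). Dhcr7 had 10.22, 9.56, 11.22 and 9.66 in cortical astrocytes against 10.17, 10.05 and 10.05 in layer 5a neurons, so the arrays overlapped. Its difference from the mean of the 6 populations was 1.58 (SE 0.24, 2.98-fold, adjusted p = 8.9e-09).

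Fdft1 was also higher in cortical astrocytes by 0.86 (adjusted p = 2.2e-05, limma), short of 2-fold. Differences for the remaining enzymes were 0.29 for Hmgcs1, 0.38 for Lss, 0.65 for Sqle and 0.68 for Cyp51. In mature oligodendrocytes of the cortex the call was Dhcr7, at 9.90, 10.10 and 10.22 against a neuron mean of 8.59, a difference of 1.49 (adjusted p = 1e-06). Sqle pointed the other way, with 9.91, 9.40 and 9.19 against a neuron mean of 10.45, a difference of -0.95 (adjusted p = 3.9e-05) that missed 2-fold. In mixed oligodendroglia the call was Idi1, at 12.16 in each of the 3 arrays, a difference of 1.75 (adjusted p = 1.4e-13, limma). Fdft1 pointed the other way there by -0.82, short of 2-fold, with all 6 neuron populations above the mixed oligodendroglia.

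Layer 5a neurons, with their other cells' markers, had the highest neuronal level of all 8 enzymes in the cortex. Without them 6 of the 24 cortical pairs were called in place of 5, the added one being Idi1 in mature oligodendrocytes (1.14, adjusted p = 2.2e-07, limma). Quantile normalization gave 3 calls in mature oligodendrocytes, where Idi1 differed by 1.41.

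**Figure D2:**
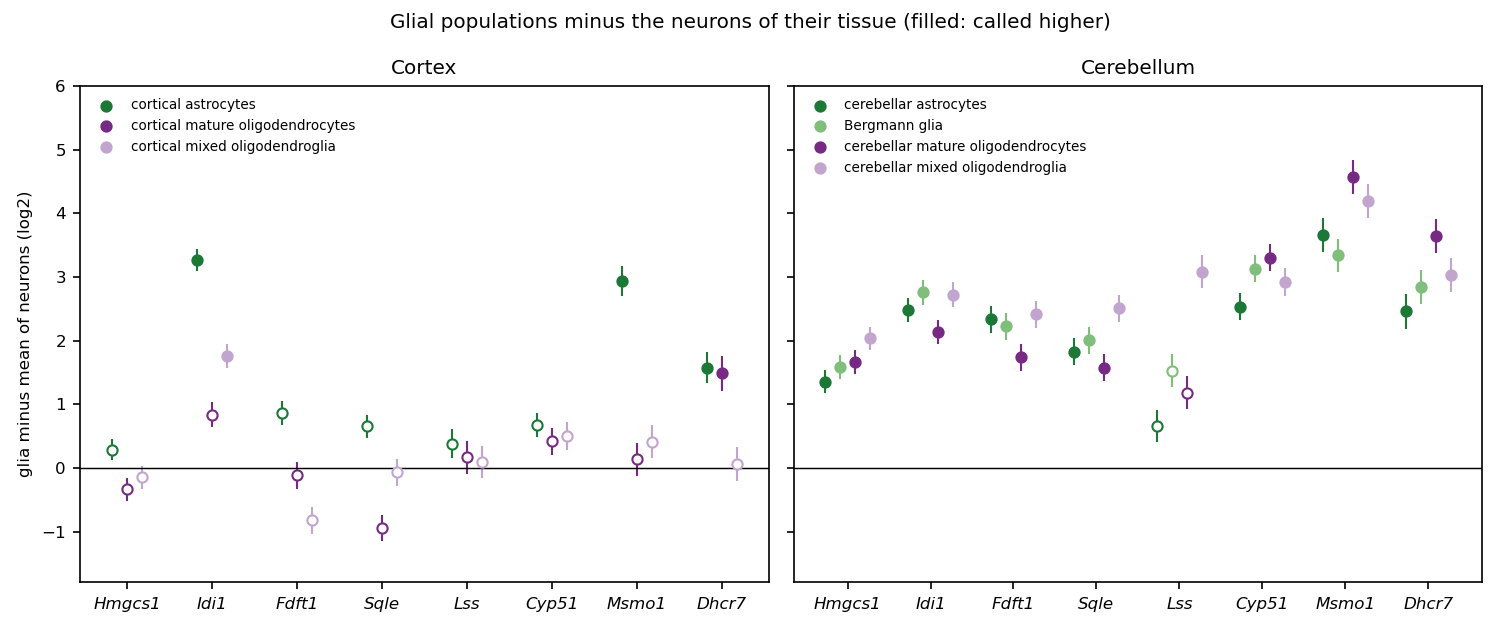
Glia minus neurons of the same tissue, as a log2 difference with its SE, for each enzyme and glial population of cortex and cerebellum. Filled points were called higher and open points were not; cerebellar differences lie mostly between 1.35 and 4.57, cortical ones mostly below 1.35, and the largest cortical point is 3.27 for Idi1 in astrocytes.

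The glia minus neuron difference itself was compared between the tissues. It differed at an adjusted p under 0.05 in 22 of 24 pairs of enzyme and glial type, with no minimum fold. These were 6 of 8 enzymes in astrocytes (69.6% of all genes), 8 of 8 in mature oligodendrocytes (63.9%) and 8 of 8 in mixed oligodendroglia (63.1%). A TRAP level above unbound RNA was not required here, so Lss was included also where its cerebellar comparison was not tested. In 21 of the 22 the difference was smaller in cortex, and in 1, Idi1 in astrocytes, it was larger (3.27 against 2.48). After quantile normalization Lss in mature oligodendrocytes lost its sign as well as its call (0.03), and Dhcr7 in astrocytes was not called (adjusted p = 0.33). Msmo1 showed the widest shift: mature oligodendrocytes were above neurons by 4.57 in cerebellum and by 0.13 in cortex. Neuronal arrays reached 11.72 in cortex and 10.24 in cerebellum, where the mean over the 5 populations was 7.01. Mature oligodendrocytes had 11.13, 9.72 and 9.55 in cortex and 11.54, 11.36 and 11.85 in cerebellum.

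Among the astrocytes themselves, cortical astrocytes had higher levels of 5 enzymes than cerebellar astrocytes, where 17% of all genes were called higher and 12.1% lower. Msmo1 showed the largest difference, 2.26 (4.80-fold, adjusted p = 3.8e-09, limma), with arrays of 12.41 to 13.30 against 10.32 to 10.91. Dhcr7 differed by 1.42 (adjusted p = 0.00017), with all 3 cerebellar arrays at 8.74, and Idi1 by 1.21. Hmgcs1 had 14.41, 14.86, 14.76 and 14.31 against 13.70, 13.24 and 13.48, a difference of 1.11 (adjusted p = 1.4e-05). Fdft1, at 14.22, 14.40, 14.48 and 14.31 against 13.47, 13.25 and 13.35, differed by 1.00 (adjusted p = 0.00066).

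All 5 of these enzymes had cortical arrays above every cerebellar array. The arrays were apart for 7 of the 8 enzymes, some of them not called, and the share among all genes was not counted. The median difference over all genes was 0.17. Fdft1 fell under 2-fold when any of 4 single arrays was left out, and Hmgcs1 did so without cerebellar astrocyte replicate 2 (0.99). The differences for Sqle (0.79), Lss (0.80) and Cyp51 (0.21) were not called. Both aldh1l1 lines were represented in cortex. Their means were 12.67 for JD130 and 13.21 for JD133 in Msmo1, and 9.89 and 10.44 in Dhcr7, so the JD130 arrays alone were above the cerebellar arrays of that line.

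Bergmann glia and cerebellar astrocytes, which share the tissue, were not called apart in any enzyme in the limma fit (1 was higher in Bergmann glia at an unadjusted p under 0.05), where 11.2% of genes were called higher in Bergmann glia and 5.4% lower. Differences of the 7 enzymes tested ran from -0.32 for Msmo1 to 0.60 for Cyp51, and Lss, which was not tested, differed by 0.87.

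Astrocytes and mature oligodendrocytes were called apart in different enzymes in the tissues. In cortex 3 of 8 enzymes were higher in astrocytes, where 47.8% of all genes were: Msmo1 by 2.80 (6.97-fold), Idi1 by 2.43 (5.38-fold, adjusted p = 8.1e-16, limma) and Sqle by 1.60 (3.03-fold). The enzyme median of 0.80 was under the 0.93 of all genes, so the enzymes as a set were not higher than genes at large. Idi1 arrays were 13.51 to 13.85 in astrocytes and 11.87, 10.97 and 10.88 in oligodendrocytes, without overlap. Dhcr7, the final enzyme, differed by 0.09. In cerebellum none of the 7 enzymes tested was called higher in astrocytes, where 45.7% of genes were. The enzyme median there was -0.31 against 0.83 for all genes. Dhcr7 was lower in cerebellar astrocytes by -1.18 (adjusted p = 0.0019, limma), where 18.2% of genes were called lower. The oligodendrocyte arrays were 9.71, 9.28 and 10.78, all above the astrocyte arrays, and without the highest of them the difference was -0.75 (adjusted p = 0.067) and not called. Msmo1 differed by -0.91 there and was called after quantile normalization.

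Mixed oligodendroglia held markers of oligodendrocyte progenitors: all 5 progenitor markers reached 6 in them, with means of 12.78 and 13.07, against 8.66 and 10.35 in mature oligodendrocytes. In cortex Dhcr7 was lower in the mixed population, at 8.65 in each array against 9.90 to 10.22, a difference of -1.43 (2.69-fold, adjusted p = 0.00026, limma), where 7% of genes were called lower. In cerebellum Lss was higher in the mixed population, at 9.66, 9.88 and 9.80 against 7.80, 8.05 and 7.79, a difference of 1.90 (3.73-fold, adjusted p = 6.4e-07), where 44.3% of genes were called higher. Neither pair of arrays overlapped. The 2 calls concern different enzymes, and no enzyme was called in both tissues. Lss in mature oligodendrocytes of the cerebellum did not exceed unbound RNA, so it could be called higher in the mixed population but not lower. In cortex no enzyme was called higher in the mixed population, where 43.4% of genes were. The enzyme medians of 0.13 in cortex and 0.48 in cerebellum were under those of all genes, 0.83 in each.

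The populations were ordered by their mean deviation, which is the population's level minus the enzyme's mean over the 24 populations, averaged over the 8 enzymes. Cortical astrocytes were first at 1.59, followed by layer 5a neurons at 1.57 and mixed oligodendroglia of the cerebellum at 1.18. Motor neurons of the brainstem came next at 0.92. At the other end were granule neurons at -1.59, Purkinje neurons at -2.70 and Golgi neurons at -2.84. After quantile normalization cortical astrocytes stayed first, while layer 5a neurons moved to place 8 and Pnoc+ neurons went from -1.31 to -0.18.

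Single enzymes had different leaders. Cortical astrocytes had the highest mean for Idi1 (13.67), Fdft1 (14.35), Msmo1 (12.94) and Dhcr7 (10.16), layer 5a neurons for Hmgcs1 (15.00) and Sqle (11.93), mixed oligodendroglia of the cerebellum for Lss (9.78) and cholinergic neurons of the corpus striatum for Cyp51 (10.62). Purkinje neurons were lowest for Hmgcs1 (11.48), Cyp51 (4.86), Msmo1 (4.08) and Dhcr7 (4.91), and Golgi neurons for Idi1 (7.27) and Sqle (6.69). Msmo1 spanned 8.86 between highest and lowest population and Hmgcs1 3.53. Cyp51, Msmo1 and Dhcr7 were below the expression minimum in both Purkinje and Golgi neurons, so their lowest place and the Msmo1 span are uncertain. Of the 23 neighbouring pairs in each order, the arrays of the neighbours were apart in 10 for Idi1 and Sqle, 9 for Cyp51, 7 for Msmo1 and Dhcr7, 5 for Lss, 4 for Fdft1 and 1 for Hmgcs1. Most neighbouring ranks were therefore within the spread of the arrays.

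**Figure D3:**
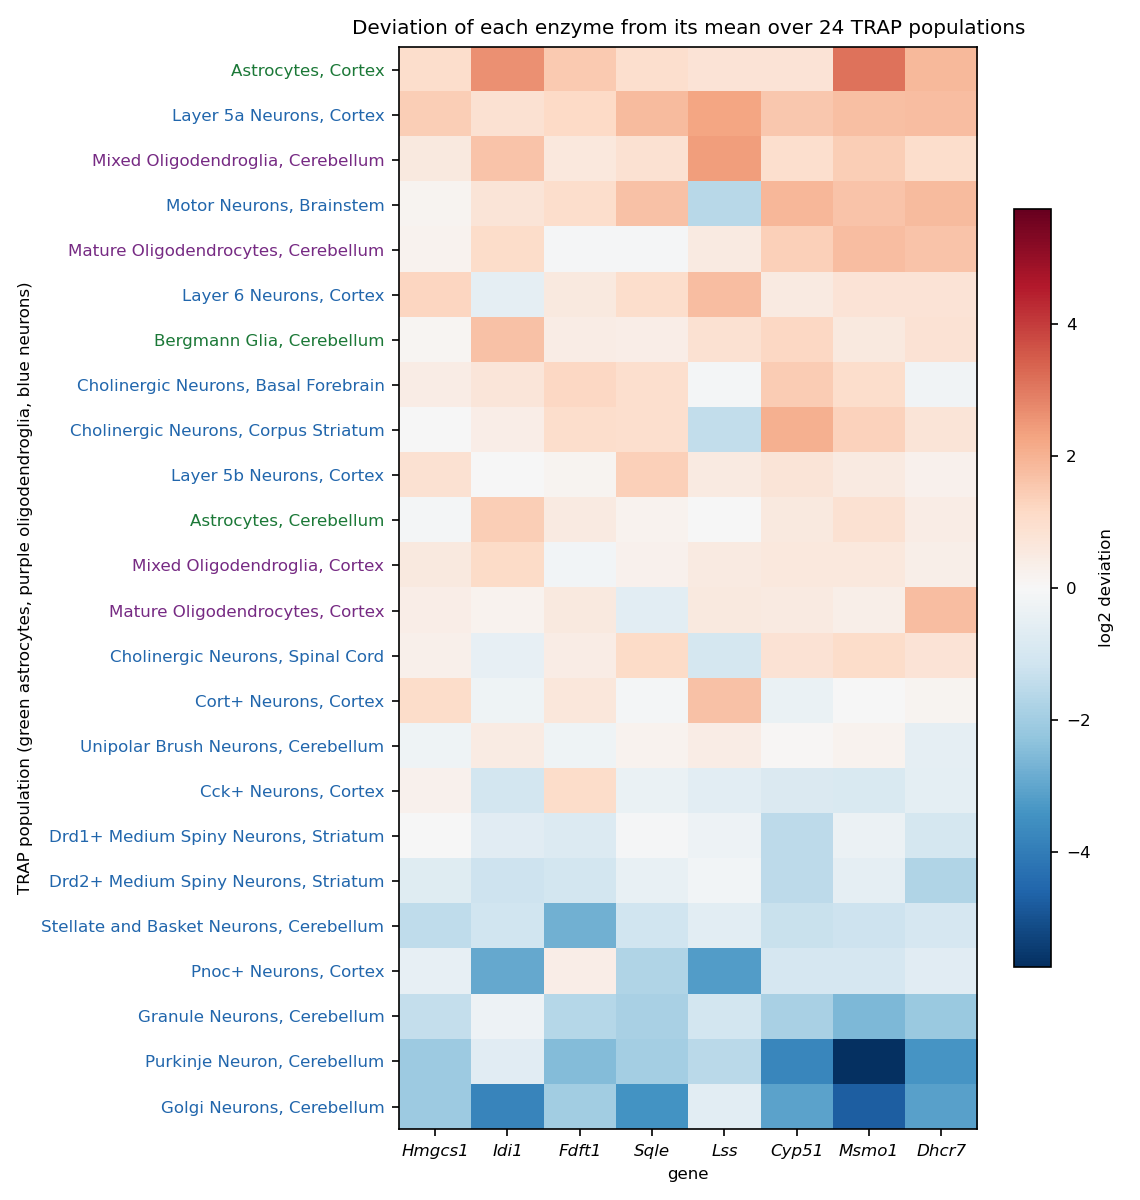
Deviation of each population's log2 level from the enzyme's mean over the 24 populations, one column per enzyme, populations in order of their mean deviation. Colour gives the log2 deviation; cortical astrocytes (mean 1.59) and Golgi neurons (mean -2.84) are at the ends, and Lss in the chat populations departs from its neighbours.

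The 17 neuron populations were each compared with the mean of the other 16. Over the 136 pairs of enzyme and population, 37 were called higher and 31 lower, beside 18.3% and 23.3% of all gene and population pairs. Of the 31 lower calls, 23 were in Purkinje, Golgi, granule, and stellate and basket neurons of the cerebellum. Of all genes 34.8%, 53.1%, 26.3% and 16.5% were called lower in these populations.

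Purkinje neurons were lower in 7 of 8 enzymes, where 34.8% of all genes were called lower. Msmo1 was at 3.55 to 4.51 in the 6 arrays, below the expression minimum, and differed by -5.55 (at least 12.4-fold, adjusted p = 4.4e-44, limma). Cyp51, at 4.51 to 5.27, differed by -3.58, Dhcr7, at 4.71 to 5.55, by -3.11, and Fdft1 by -2.45. Idi1 was the exception, with 10.27 to 10.61 in Purkinje neurons and a difference of -0.08. Cyp51, Msmo1 and Dhcr7 were thus below the expression minimum in these arrays, while Idi1 was near the mean of the other neurons. The median difference of all genes was -0.34, and 6 enzymes were still called lower after quantile normalization.

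Golgi neurons were also lower in 7 of 8 enzymes, in a population where 53.1% of all genes were called lower and the median gene differed by -1.09. Idi1 had 7.16, 7.47 and 7.16, a difference of -3.41 (10.7-fold), and Sqle 6.69 in each array, a difference of -3.52 (11.5-fold, adjusted p = 5.9e-28, limma). Lss, at -0.30, was not called. Granule neurons were lower in 6 enzymes (26.3% of all genes), with Msmo1 at 7.05, 7.44 and 7.22 and a difference of -2.19. Stellate and basket neurons were lower in 3 (16.5%), with Fdft1 at 9.92, 10.37 and 10.01, the lowest Fdft1 of any population, and a difference of -2.70.

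Higher calls were frequent in the chat populations. Cholinergic neurons of the corpus striatum had 6 enzymes higher (17.4% of genes), motor neurons of the brainstem 5 (14.8%), cholinergic neurons of the basal forebrain 5 (8.94%) and those of the spinal cord 0 (6.04%), where 6 were higher at an unadjusted p under 0.05 in limma. In spinal cholinergic neurons Msmo1 (1.66), Dhcr7 (1.34), Sqle (1.29) and Cyp51 (1.23) passed the adjusted p and 2-fold but did not exceed unbound spinal cord, as a call requires. The same held for Idi1 in motor neurons (1.39). After quantile normalization the counts were 4 in the striatal, 5 in the motor, 5 in the basal forebrain and 2 in the spinal population, and Idi1 in the striatal population (1.01) fell under 2-fold without either of 2 arrays (0.97). Cyp51 had 10.76, 10.54 and 10.55 in the striatal, 10.50, 10.47 and 10.50 in the motor and 10.10, 10.08 and 9.88 in the basal forebrain population. These 9 arrays lay close together, and the differences from other neurons were 2.53 (at least 5.40-fold, adjusted p = 3.8e-19, limma), 2.40 and 1.90. Dhcr7 in motor neurons had 9.76, 10.24 and 10.39, a difference of 2.44 (at least 5.00-fold).

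Lss went the other way in 2 of these populations. It had 5.33, 6.01 and 6.01 in motor neurons, a difference of -1.34 (18.5% of genes were called lower), and 6.25, 7.06 and 4.57 in striatal cholinergic neurons, a difference of -1.15 (19.1%). The striatal Lss call rested on the lowest array: without it the difference was -0.46 (adjusted p = 0.12, limma). Astrocyte markers were low in these populations, with means of 4.81 and 2 of 9 markers at 6 or above in basal forebrain, 5.29 and 3 of 9 in striatum and 6.49 and 6 of 9 in motor neurons. Oligodendrocyte markers had means of 6.18, 8.89 and 9.51, with 4, 8 and 8 of 8 at 6 or above, and their part was not tested.

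Layer 5a neurons were higher in all 8 enzymes, where 56.2% of all genes were and the median gene differed by 1.29, so that 4 were called after quantile normalization. Layer 6 neurons had 5 higher (29.7%) and layer 5b neurons 4 (35.6%), and each kept 2 after quantile normalization. Of the layer 5b calls, Hmgcs1 (0.95), Cyp51 (0.97) and Msmo1 (0.97) each fell under 2-fold without 1 array. Pnoc+ neurons were lower in Lss (4.80, 4.02 and 3.73), Idi1 and Sqle, in a population with 61% of all genes called lower. After quantile normalization 2 enzymes were called higher there (Fdft1 and Dhcr7) and 2 lower (Lss and Idi1), with an enzyme median of 0.64 against -0.10 for all genes. Cort+ neurons had Lss at 9.06, 8.93 and 9.16, above other neurons by 2.13, and Hmgcs1 higher by 1.28 (17.6%). The single call in Cck+ neurons was Fdft1, at 14.26, 13.80 and 13.54, higher by 1.30 (9.32%). Medium spiny neurons had Cyp51 lower, by -1.22 in the Drd1+ population (6.67%) and by -1.23 in the Drd2+ population (12.3%), where Dhcr7 was also lower, by -1.34. Unipolar brush neurons had a single call, Idi1, higher by 1.11 (14.5%), which was not made after quantile normalization.

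Each TRAP population was also set against the unbound RNA of its tissue, which holds RNA of all cells of the dissection. In bulk samples of this kind fewer cells of a type and less RNA per cell cannot be told apart. Over 192 pairs of enzyme and population, 51 were called higher in TRAP and 38 lower, beside 18.4% and 32.4% of all gene and population pairs. Dhcr7 was called higher in 11 populations and lower in 4, Sqle in 9 and 4, Cyp51 in 9 and 5, Msmo1 in 7 and 4, Fdft1 in 6 and 3 and Idi1 in 5 and 5. Lss was higher in 4 and lower in 9, and Hmgcs1 was higher in 0 and lower in 4. After quantile normalization 22 pairs were called lower, of which 17 were among these 38.

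Cortical astrocytes had 6 enzymes enriched over unbound cortex, where 33% of all genes were and the median gene differed by 0.11. Msmo1 was at 9.01 to 10.24, with a median of 9.41, in the 9 unbound arrays and at 12.41 to 13.30 in astrocytes, a difference of 3.42 (10.7-fold). Dhcr7 differed by 2.69, Idi1 by 2.63, Fdft1 by 1.66, Cyp51 by 1.52 and Sqle by 1.46, while Hmgcs1 (0.50) and Lss (0.55) were not called. In the cerebellum mixed oligodendroglia had 6 enzymes enriched (17.8% of genes), Bergmann glia 4 (19.6%), cerebellar astrocytes 3 (16.3%) and mature oligodendrocytes 3 (8.42%). Mature oligodendrocytes of the cortex had Dhcr7 (2.60) and Cyp51 (1.26) enriched (15.7%) and mixed oligodendroglia of the cortex 3 enzymes (31.8%). Against unbound arrays of their own line alone, Cyp51 was not called in mature oligodendrocytes (0.59), nor Cyp51 (0.07) and Idi1 (0.61) in mixed oligodendroglia of the cortex. In cerebellar astrocytes Lss was called lower by -1.03 (48.6% of genes lower), beside a median of -0.93 for all genes, and the sign turned to 0.25 after quantile normalization.

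Lower calls in the other glial populations were none, where 31.5% of genes were called lower in cortical astrocytes, 39.5% in Bergmann glia, 53.3% and 32.8% in mature oligodendrocytes of cerebellum and cortex, and 39.1% and 20.6% in mixed oligodendroglia of cerebellum and cortex.

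Among neurons, striatal cholinergic neurons had 4 enzymes enriched (23.2%). Cyp51 had 7.15 to 8.76, with a median of 7.50, in the 6 unbound striatal arrays and 10.54 to 10.76 in the neurons, a difference of 2.81 (7.01-fold, adjusted p = 8.1e-18, limma). Against the unbound striatal arrays of their own line alone, Cyp51 (1.96) and Sqle (1.12) were called, and Msmo1 (0.11, from 1.48) and Dhcr7 (0.89, from 1.79) were not. Lss was lower by -2.11 in the same population (30.9%), by -2.96 in motor neurons (32.3%) and by -3.27 in spinal cholinergic neurons (53.3%). Golgi and Purkinje neurons each had 7 enzymes lower than unbound cerebellum (70.4% and 49.2% of genes), of which Lss in Golgi neurons turned to 0.61 after quantile normalization. Granule neurons had 6 lower (38%) and stellate and basket neurons 5 (38.4%). Quantile normalization left 2 of these calls in Golgi, 3 in Purkinje, 2 in granule and 2 in stellate and basket neurons. Purkinje Msmo1 stood apart from unbound cerebellum, at 9.02 to 10.18 with a median of 9.45, by -5.43 (adjusted p = 4.5e-36, limma). The Purkinje level lay below the expression minimum, so the size of that difference is uncertain. Golgi (4.41%), Purkinje (14%), granule (5.33%) and stellate and basket neurons (9.26%) had no enzyme called higher. Unipolar brush neurons had none called in either direction (12.1% higher and 37.5% lower), and at an unadjusted p under 0.05 limma gave 2 higher and 1 lower. After quantile normalization 3 were called higher.

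Deep-layer cortical neurons had enzymes called higher than unbound cortex at shares near those of all genes in layers 5a and 5b. Layer 6 neurons had 5 enzymes higher (30.8% of genes): Dhcr7 by 1.59, Lss by 1.54, Sqle by 1.48, Cyp51 by 1.24 and Msmo1 by 1.08. Layer 5b neurons had Sqle (1.85), Cyp51 (1.48) and Dhcr7 (1.06) higher (36.6%), of which Dhcr7 fell under 2-fold without replicate 2 of the population (0.86). The enzyme median of layer 5b, 0.58, was under the 0.69 of all genes. Layer 5a neurons had 6 higher in a population with 60.7% of genes called higher. After quantile normalization the counts were 3 in layer 6, 1 in layer 5b and 3 in layer 5a. None of the 3 populations had an enzyme lower, where 4.53%, 4.91% and 2.31% of genes were, though 1 was called lower in layer 6 after quantile normalization.

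The other cortical neurons had few calls. Pnoc+ neurons were lower in Lss (-3.42), Idi1 (-2.91) and Sqle (-1.25), with 58.1% of genes called lower and 2.92% higher. After quantile normalization 3 enzymes were called higher there (Dhcr7, Cyp51 and Fdft1) and 2 lower (Lss and Idi1). Cck+ neurons had Fdft1 higher by 1.18 (15.3%) and Idi1 lower by -1.04 (22.8%), and both fell under 2-fold when single arrays were left out (0.98 for Fdft1 and -0.93 for Idi1 at the smallest). Against unbound arrays of its own line alone Idi1 differed by -0.39 and was not called. Cort+ neurons had Lss higher by 1.45 (12.8%) and none lower (4.45%).

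In the remaining tissues, motor neurons had Sqle (1.14) and Dhcr7 (1.05) above unbound brainstem (9.42%), and Dhcr7 fell under 2-fold without either of 2 motor neuron arrays (0.92 at the lowest). Without replicate 1 of unbound brainstem, left out with replicate 1 of the other small unbound groups, Sqle was at 0.89 and Dhcr7 at 0.85. Basal forebrain cholinergic neurons had Sqle higher by 1.19 (7.99%) and none lower (41.5%), and 4 were higher after quantile normalization. Drd1+ neurons had Sqle higher by 1.21 (29.8%) and none lower (8.21%), and this sign turned without further scaling (-0.0496). After quantile normalization none was higher there and 3 were lower. Drd2+ neurons had Fdft1 lower by -1.11 (13%) and none higher (16.8%), and the sign turned with the mean of its probe sets (0.21). Spinal cholinergic neurons, set against the tissue with the highest unbound levels of most enzymes, had 5 lower (53.3%) and none higher (5.38%), with an enzyme median of -1.21 against -1.12 for all genes. Of the 5, 2 were called under both scalings.

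**Figure D4:**
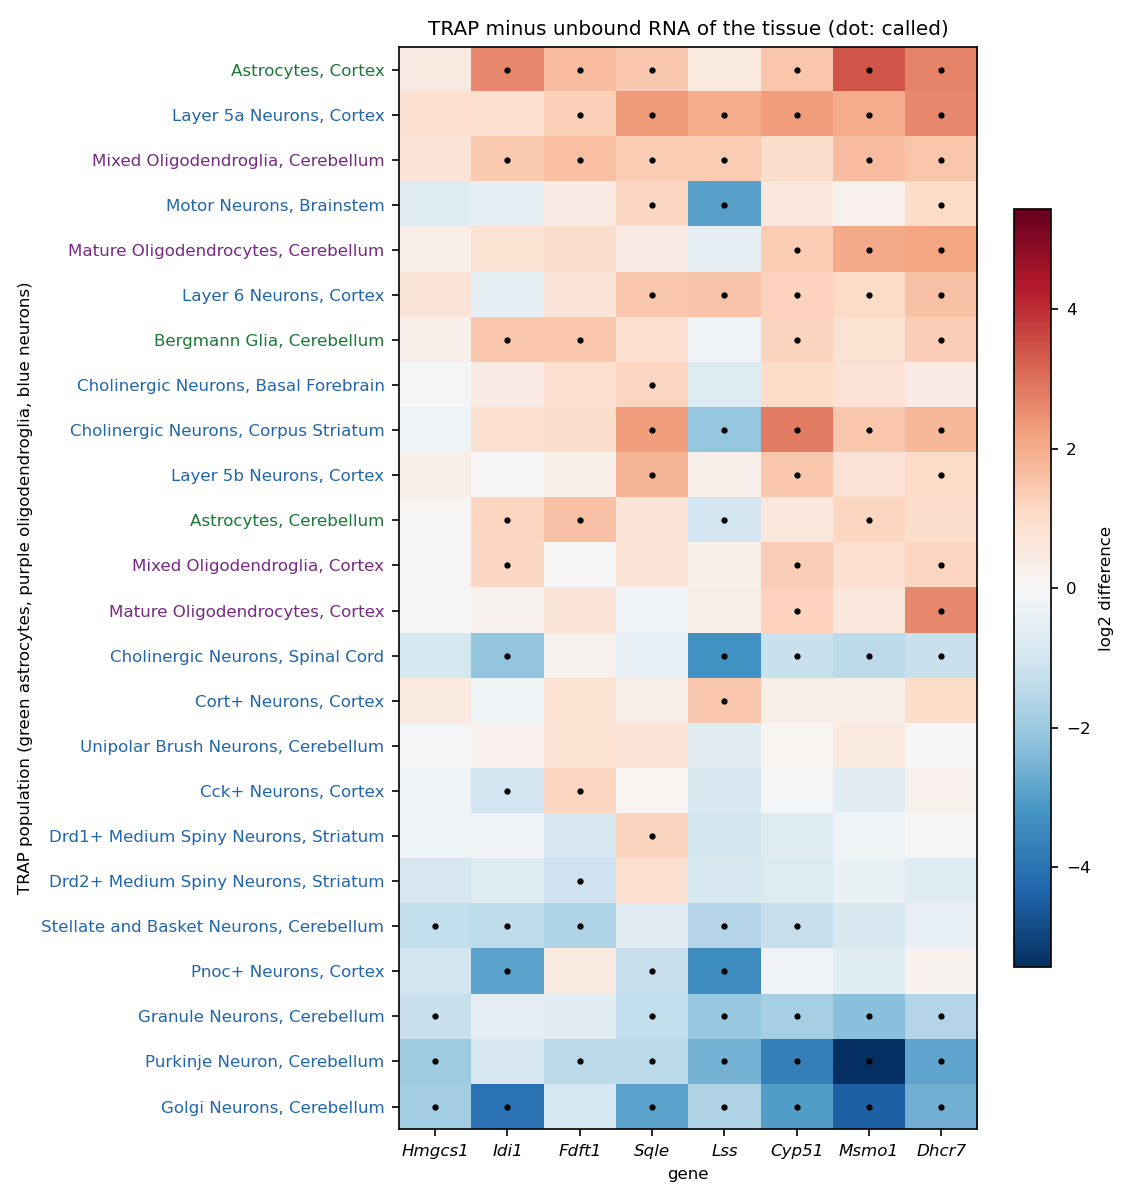
TRAP minus unbound RNA of the same tissue for each enzyme and population, as a log2 difference shown by colour, with a dot where the pair was called. Glia and cholinergic or deep-layer neurons carry most of the 51 higher calls. The cerebellar neurons at the bottom carry most of the 38 lower ones, and 38% to 70.4% of all genes were called lower in them.

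The unbound tissues differed among themselves, with the spinal cord and the brainstem highest. Unbound spinal cord had 6 of 8 enzymes called higher than unbound cortex, where 31% of genes were called higher and the median gene differed by 0.47. Dhcr7 was at 10.45, 10.45 and 10.05 in spinal cord against 6.48 to 8.48, with a median of 7.32, in the 9 cortical arrays. The groups did not overlap, and the difference was 2.84 (7.18-fold, adjusted p = 2e-14, limma). Msmo1 had 12.30, 12.32 and 12.22, higher by 2.77 (6.81-fold), and Cyp51 10.44, 10.58 and 10.74, higher by 2.74 (6.69-fold). Lss differed by 2.03, Sqle by 2.02 and Idi1 by 1.70, also without overlap. The arrays were apart for 7 of the 8 enzymes, and the share among all genes was not counted. Hmgcs1 (0.76) and Fdft1 (0.41) were not called.

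Unbound brainstem had the same 6 enzymes called higher than cortex (33.1% of genes), with Cyp51 at 2.04, Msmo1 at 1.72, Dhcr7 at 1.61, Idi1 at 1.26, Lss at 1.14 and Sqle at 1.03. The Sqle difference fell under 2-fold without any of 3 single cortical arrays (0.95 at the lowest) and without brainstem replicate 2 (0.94) or 3 (0.86), where the same number of the other small unbound groups was left out of the fit too, and 4 enzymes were called after quantile normalization. Basal forebrain had Cyp51 called, higher by 1.20 (22.5%), and cerebellum (47.1%) and striatum (16.9%) had none higher. At an unadjusted p under 0.05 limma gave 2 enzymes higher and 2 lower in cerebellum, and 1 higher and 2 lower in striatum. None was called lower in any tissue, where 2.67% to 9.28% of genes were. After quantile normalization Hmgcs1 (-1.38) and Fdft1 (-1.70) were called lower in cerebellum and Sqle (-1.06) in striatum. The 5 comparisons share the cortical arrays.

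Oligodendrocyte markers also differed between these tissues, and were above cortex in striatum and cerebellum too, where no enzyme was called higher. Their mean level was 13.64 in unbound spinal cord, 13.16 in brainstem, 12.09 in striatum, 11.83 in basal forebrain, 11.52 in cerebellum and 10.53 in cortex, with all 8 on the array at 6 or above in spinal cord and brainstem. Their part in the result was not tested. In the striatum the arrays also differed by line. Msmo1 was at 11.15 and 10.91 in unbound RNA of the chat line DW167 and at 8.50 to 9.58 in the other 4 arrays, and spinal cord, brainstem and basal forebrain were represented by DW167 alone.

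**Figure D5:**
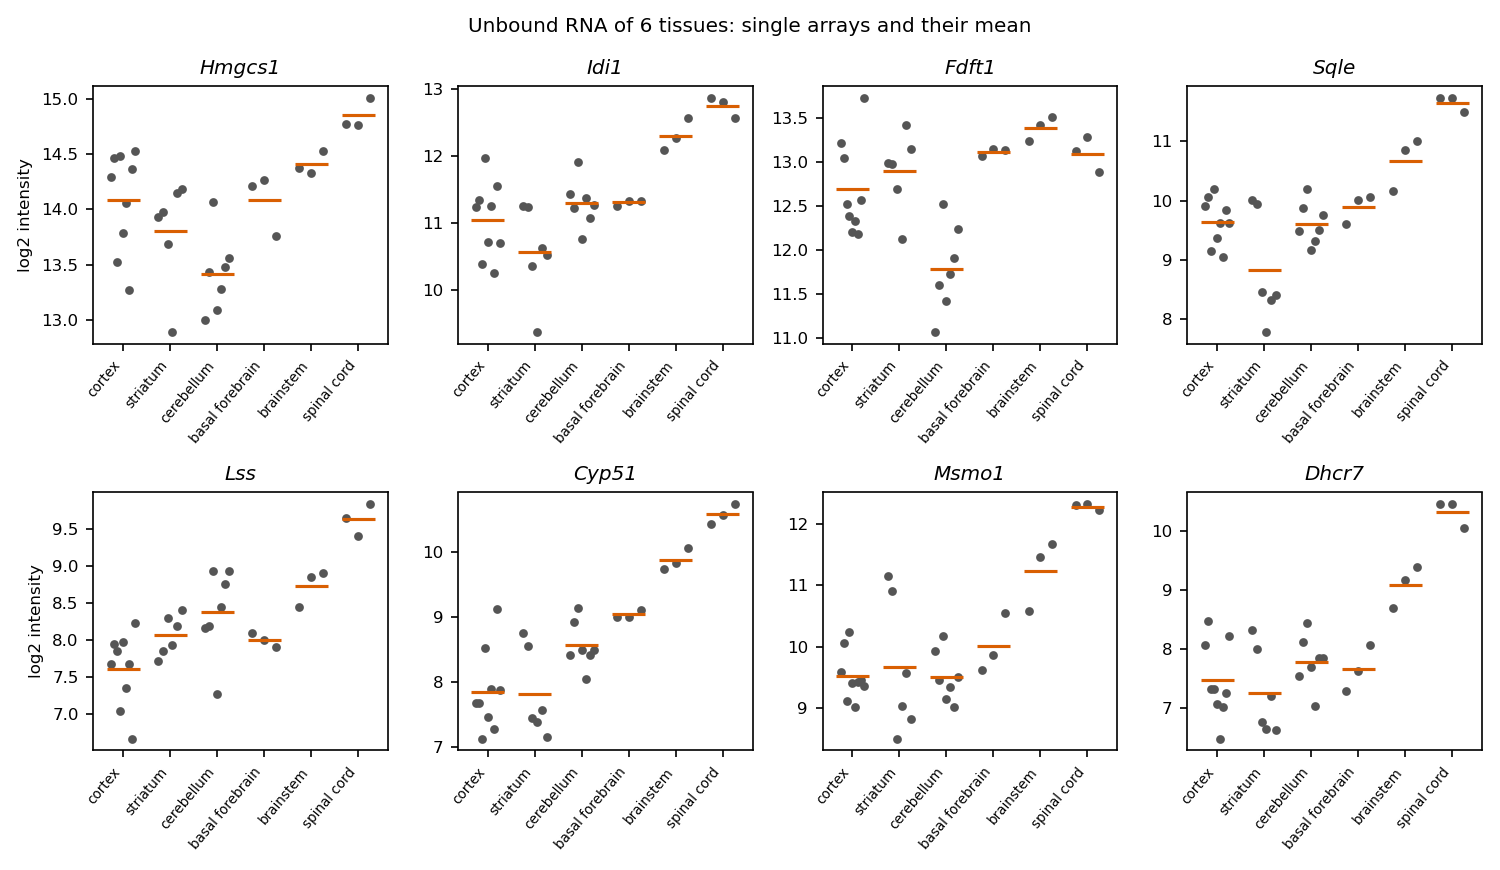
Log2 level of each enzyme in the 31 arrays of unbound RNA, by tissue. Points are single arrays and orange lines are means; for Dhcr7 the 3 spinal cord arrays lie at 10.05 to 10.45, above all 9 cortical arrays.

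Other genes of cholesterol metabolism were described from 3 lists. Of 9 other enzymes of the pathway on the array, none was called between astrocytes and neurons over population means, where 12% of all genes were called higher, and their median difference was 0.90 against -0.11 for all genes. None was called between oligodendroglia and neurons. Against cortical neurons they were called higher in 4 of 9 tests in cortical astrocytes (26.4% of all genes), 2 of 9 in mature oligodendrocytes (11.8%), where 2 were lower, and 1 of 9 in mixed oligodendroglia (27.1%), where 1 was lower. Against cerebellar neurons the counts were 1 of 5 in astrocytes (28.9%), 3 of 6 in Bergmann glia (34.8%), 3 of 5 in mature oligodendrocytes (17.6%) and 6 of 8 in mixed oligodendroglia (32.2%). In unbound spinal cord 8 of 9 were called higher than in cortex (31%) and in brainstem 5 of 9 (33.1%). Purkinje neurons had 6 of 9 lower than unbound cerebellum (49.2%) and Golgi neurons 7 of 9 (70.4%).

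Of 7 genes of sterol sensing, Srebf1, a transcription factor of the pathway and of fatty acid synthesis, was higher in astrocytes (10.68) than in neurons (5.83), by 4.85 (adjusted p = 0.0066, limma). Mbtps2, a protease that releases the active factors, was lower in astrocytes (adjusted p = 0.034), and the other 5 were not called. Of 12 genes of uptake, transport and export tested, 4 were higher in astrocytes and 1 lower. Lcat, which esterifies cholesterol on lipoproteins, was higher by 7.76 (adjusted p = 0.00037), Apoe, the main lipoprotein of the brain, by 6.15 (adjusted p = 0.006), the exporter Abca1 by 3.24 and the lysosomal carrier Npc2 by 1.66. The exporter Abcg1 was lower by -5.04 (adjusted p = 4.6e-06). Class means of Srebf1 (5.83) and Lcat (4.51) in neurons and of Abcg1 (5.01) in astrocytes lay below the expression minimum. The sizes of their differences are therefore uncertain. In oligodendroglia minus neurons Npc1 (3.65) and Npc2 (1.28), which pass cholesterol out of lysosomes, were called higher, and Abcg1 was lower in astrocytes than in oligodendroglia, by -5.08.

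Cyp51, Msmo1 and Dhcr7 varied most alike over the 24 population means. Pearson's r was 0.918 between Msmo1 and Dhcr7 and 0.914 between Cyp51 and Msmo1, and Hmgcs1 and Fdft1 correlated at 0.856. Idi1 had its highest value with Sqle, 0.709, and Lss its highest with Hmgcs1, 0.623, and its lowest with Fdft1, 0.311. These are descriptions over populations that share lines, normalization and chip, so they carry no p.

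The average of the 8 enzymes, each as z scores over the 24 population means, was set against 12383 other genes. The 10 most alike were Acadl (r = 0.892), Idh1 (0.884), Saraf (0.870), Vcl (0.868), Tmem161a (0.861), Fdps (0.860), Vwa5a (0.858), Nsdhl (0.854), Wdfy2 (0.852) and Mapre1 (0.847). Fdps and Nsdhl are themselves enzymes of the pathway. Mvd, another, had 0.767 and was number 74 in the order, and the regulator Srebf1 had 0.712 and was number 169. All 10 were among the first 21 after quantile normalization.

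Other probe sets of the same enzymes were read beside those used. The second expressed Idi1 probe set gave 2.30 for astrocytes minus neurons against 2.48, and the other expressed Hmgcs1 probe sets 0.39 to 0.64 against 0.51. The Fdft1 probe set is of a type whose probes can match other sequences, and its second expressed probe set gave 0.72 against 1.01. For Cyp51 another probe set gave 1.26 against 1.19, while the remaining one, whose highest group mean was 6.09, gave -0.69. For oligodendroglia minus neurons the other expressed Hmgcs1 probe sets gave 0.91 to 1.12 against 0.60. The Cyp51 probe set with 1.26 gave 0.66 there against 1.21. For astrocytes minus oligodendroglia these Hmgcs1 probe sets gave -0.27 to -0.72 against -0.09, and that Cyp51 probe set 0.60 against -0.015.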

How the data were processed

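Arrays measured TRAP RNA of 24 populations and unbound RNA of 6 tissues. The deposited values are linear intensities per probe set, made by the authors with GCRMA within each group of replicates, per the series text and the submitters' processing notes; the version is not given in the sources used here. Intensities were turned into log2, and each group was shifted to the same mean over 18 biotinylated control probe sets (10.13 to 12.00 before), as the series text recommends. Of 45101 probe sets, 34945 named 1 gene, 932 several and 9211 none. A gene took its probe set with the highest mean over all arrays.

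Differences were tested with limma 3.58.1 (lmFit, eBayes with trend) in R 4.3.3, in 1 fit over 107 arrays, or over 24 population means for classes, with Benjamini-Hochberg adjustment over all genes tested. The scripts were tested on simulated data. The replicates are the TRAP replicates that the series text calls independent. Named genes were the 8 enzymes, 3 lists of cholesterol genes and the 10 genes most alike by Pearson's r. The members and lists were chosen with earlier results of these data known. Alternatives were no further scaling, quantile normalization, the mean of a gene's probe sets, other expression minimums, other fits, the replicate block and leaving out arrays. The number of arrays limits precision.

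Same-numbered TRAP and unbound arrays of a line gave deviations that correlated at a median of 0.097 over 27 pairs (-0.247 to 0.557), and all 3 pairs exceeded 0.1 for brainstem motor neurons and basal forebrain cholinergic neurons alone.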

Additional observations from a re-analysis of the deposited data

Results flagged for a closer look

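The glia minus neuron difference differed between cortex and cerebellum in 22 of 24 pairs of enzyme and glial type (limma interaction, adjusted p under 0.05). Differences are cortex minus cerebellum on the log2 scale. In astrocytes they were -1.07 for Hmgcs1, 0.78 for Idi1, -1.47 for Fdft1, -1.17 for Sqle, -1.85 for Cyp51 and -0.88 for Dhcr7. In mature oligodendrocytes they were -2.00 for Hmgcs1, -1.30 for Idi1, -1.85 for Fdft1, -2.52 for Sqle, -1.02 for Lss, -2.89 for Cyp51, -4.44 for Msmo1 and -2.16 for Dhcr7. In mixed oligodendroglia they were -2.18 for Hmgcs1, -0.97 for Idi1, -3.24 for Fdft1, -2.58 for Sqle, -2.99 for Lss, -2.42 for Cyp51, -3.78 for Msmo1 and -2.98 for Dhcr7. In astrocytes 6 of 8 enzymes differed, beside 69.6% of all genes. In mature and in mixed oligodendroglia 8 of 8 did, beside 63.9% and 63.1%.

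In Purkinje neurons, Dhcr7 in replicate 1 was at 5.55, apart from the other 5 arrays at 4.71 to 4.80. All 6 lie below the expression minimum. It was 1 of 40 sets of 4 to 9 arrays examined for an outlying array, and chance gives about 1 in 20.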

How the results depend on the processing

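The scaling between groups and the choice of probe set moved the most calls. Without further scaling, mixed against mature oligodendroglia gave 5 calls, Bergmann glia against cerebellar astrocytes 1, unbound brainstem 3, and unbound cerebellum, striatum and basal forebrain 4. After quantile normalization there were 22 pairs lower in TRAP than in unbound RNA, 4 calls between mixed and mature oligodendroglia, 3 in those 3 unbound tissues and 1 in oligodendroglia against neurons as classes. Calls made under both scalings, an alternative chosen after seeing the data, were 17 pairs lower in TRAP and 0 in those 3 unbound tissues. With the mean of a gene's probe sets, cortical against cerebellar astrocytes gave 3 and those tissues 0. Over arrays in place of population means, 5 enzymes were called higher in astrocytes and 5 in oligodendroglia than in neurons. The error of that fit is the spread between replicate arrays and leaves out the spread between populations, so these counts do not test the classes. Against unipolar brush neurons alone, also chosen after seeing the data, 10 of 29 cerebellar pairs were called.

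The direction turned for Sqle in Drd1+ neurons against unbound RNA (-0.0496 without further scaling), for Lss in cerebellar astrocytes (0.25) and Golgi neurons (0.61) after quantile normalization, and for Fdft1 in Drd2+ neurons (0.21 with the mean of probe sets). Of 216 calls, 200 were made again without further scaling, 167 after quantile normalization, 164 with the mean of probe sets and 212 with a minimum of 8. With unbound arrays of the same line alone, 83 of 89 calls were made again. Many of these could not change. Cort+ neurons, cerebellar astrocytes, mixed oligodendroglia of the cerebellum, and Golgi, granule, and stellate and basket neurons had no unbound array of their line. Their main results were carried over. Motor neurons and cholinergic neurons of basal forebrain and spinal cord had unbound arrays of their own line alone in the main fit too.

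Leaving out 1 array (for the unbound tissues with 3 to 6 arrays, 1 of each tissue at once) gave 50 to 54 pairs higher and 37 to 41 lower in TRAP, 5 to 6 higher in cortical and 28 to 29 in cerebellar glia, 0 to 1 lower in glia, 3 to 5 calls between cortical and cerebellar astrocytes, 3 to 5 between astrocytes and mature oligodendrocytes, 2 to 4 between mixed and mature oligodendroglia, 0 between Bergmann glia and astrocytes, 36 to 38 higher and 30 to 31 lower in single neuron populations, 6 in unbound spinal cord, 5 to 6 in brainstem, 1 to 2 in the other tissues and 21 to 23 differences between cortex and cerebellum. The classes kept 1, 0 and 0 calls. With the replicate number as a block, 214 of 215 calls were made again. The call lost was Dhcr7 in layer 5b neurons against unbound RNA (0.96). Within pairs of the same line, 4 of 4 calls were made again.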
